A study of Mus musculus with 6 samples.

Results

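miR-21a is a microRNA (miRNA) whose hairpin precursor gives 2 measurable strands, the guide miR-21a-5p and the star or passenger strand miR-21a-3p. Listed as mmu-miR-21a-5p and mmu-miR-21a-3p, these are 2 of the 1414 rows of a table of miRNA counts from mouse pancreas, picked by name because their counts had differed between control and model libraries in these same data. Their levels and changes are therefore given as a description, with no test. All mice were wild-type C57BL/6, of 22 to 25 g. Their age and sex were stated in none of the sources at hand. The control group (3 libraries, replicates 43, 44 and 45) received saline in 7 injections into the peritoneum, 1 hour apart. The model group (3 libraries, replicates 56, 57 and 59) received caerulein, an analogue of cholecystokinin that overstimulates acinar cells, at a labelled 50 mg/kg on the same schedule, and lipopolysaccharide (LPS), a component of bacterial cell walls, was added to the last dose. This is a model of acute pancreatitis, and pancreas was taken 24 hours after the start. Neither agent was given by itself, so the effects of caerulein and of LPS cannot be told apart. The labels list saline once more, as a second treatment of both groups, with no further detail.

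A miRNA hairpin is cut by Drosha and then by Dicer into a short duplex, one strand of which is kept in an Argonaute protein as the guide while the other is usually degraded. miR-21 is among the best studied miRNAs of inflammation and cancer: AP-1, STAT3 and NF-kB act on its promoter, SMAD proteins promote its processing, and its guide represses Pdcd4, among others. It has been studied in the pancreas in inflammation, fibrosis and tumours. The guide pairs with target RNAs mainly through its seed, bases 2 to 8, so strands with different seeds differ in the targets they can pair with.

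The sequences of both strands show that they carry unrelated seeds. They are given with the seed in capitals, from the deposited table, 5′ to 3′.
miR-21a-5p: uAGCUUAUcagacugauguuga
miR-21a-3p: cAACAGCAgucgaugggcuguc
miR-590-5p: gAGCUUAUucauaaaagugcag
miR-590-5p is shown because it was the only other row with the seed of miR-21a-5p. It held 1 count over all 6 libraries, against 273274 for miR-21a-5p. No other row shared the seed of miR-21a-3p.

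Both mature sequences and the hairpin matched RefSeq (GRCm38.p6) in full. Mir21a occupies 86584067 to 86584158 of chromosome 11 (minus strand), inside the annotated 3′ untranslated region in exon 12 of the protein-coding gene Vmp1 (GENCODE release M21). The 5p strand spans 86584120 to 86584141 and the 3p strand 86584082 to 86584103. Within the hairpin of 92 bases, the 5p strand takes bases 18 to 39 and the 3p strand bases 56 to 77, with 16 bases between them. A fold predicted with RNAfold paired 19 of the 22 bases of each strand with the other strand.

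The guide begins with U and the star strand with C. Among hairpins listed with both arms, U was the first base of 51.8% of major arms (200 of 386 distinct sequences) and 23.7% of minor arms (92 of 388), where the major arm is the one with the higher mean level. C was the first base of 14.5% of major and 31.2% of minor arms, and A of 25.9% and 30.7%. The first base of each miR-21a strand was thus the commonest one among arms of its own kind, with A close behind C among minor arms. The guide held 36.4% G and C and the star strand 59.1%.

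RefSeq lists 2 relatives, miR-21b and miR-21c, shown because their sequences resemble the guide.
miR-21b: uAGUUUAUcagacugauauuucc
miR-21c: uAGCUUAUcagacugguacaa
miR-21c has the same seed and its first 15 bases equal those of miR-21a-5p, with A16G as the first substitution (the miR-21a-5p base, its position from the 5′ end, then the miR-21c base). miR-21b differs inside the seed, with C4U. Neither was analysed here, and the sources used here do not say how the counting would treat a read that fits both miR-21a-5p and miR-21c.

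Libraries held 1943693 to 3006220 miRNA counts, and a count of 0 in a library would allow 0.896 to 1.80 CPM (counts scaled to a common total with TMM factors; upper limit of 3 counts). Intervals and limits cover counting error only, since no source used here says whether reads were collapsed on their molecular identifiers. Of all rows, 499 passed the filter on low counts, both strands among them. The libraries of a group differed by far more than sampling noise (chi-square per degree of freedom of 98.8 to 265), so none was a copy of another. The acinar miRNAs miR-216a-5p, miR-216b-5p, miR-217-5p and miR-148a-3p were present in every library and together held 47827 to 92618 CPM. Whether a library stands for 1 mouse is not said in the labels, and p-values therefore measure only how far these libraries spread, which may be technical. In such bulk tissue, a change in the cells present and a change in the RNA per cell cannot be told apart.

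The guide strand was already among the most abundant miRNAs of control pancreas. miR-21a-5p had 36654, 25641 and 16997 counts in controls 43, 44 and 45, and 57315, 74149 and 62518 in model libraries 56, 57 and 59. Scaled between libraries with TMM factors (trimmed mean of M-values), these were 14117, 12482 and 10192 CPM in control and 21239, 22744 and 18687 CPM in model libraries. Every model library lay above every control library, and the lowest model value was 1.32 times the highest control value. Its rank by count among all rows was 22, 28 and 33 in the controls and 15, 12 and 18 in the model libraries.

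The mean level of miR-21a-5p went from 12264 ± 1972 to 20890 ± 2051 CPM (SD, n = 3 each), 1.70 times as high (log2 fold change 0.77, SE 0.16, edgeR). It took 0.874% to 1.39% of all miRNA counts in control and 2.17% to 2.47% in model libraries. Of the 32 rows with a mean of at least 10000 CPM, 2 had a positive log2 fold change, and that of miR-21a-5p was the higher one. The other was miR-24-3p, at 0.48 (SE 0.14), and the median of the 32 rows was -0.37. This depends on the scaling: 12 of the 32 were positive with total counts alone, and 32 under the authors' library totals (median 0.42), and miR-21a-5p was the highest under each. Over all 499 rows, 57 had a log2 fold change at least as high as that of miR-21a-5p, itself included.

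The neighbours of the guide in level changed with the group. In control, miR-24-3p (12472 ± 1486 CPM) stood just above it and miR-26b-5p (12249 ± 1207 CPM) just below, both within the guide's own spread. In model libraries miR-148a-3p, an acinar-enriched miRNA, stood just above it (20945 ± 484 CPM) and miR-181a-5p just below (19768 ± 936 CPM), again within that spread (SD, n = 3 each).

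The star strand was scarce in control pancreas and stood far higher in the model. miR-21a-3p had 129, 40 and 41 counts in controls 43, 44 and 45, and 2799, 1821 and 2051 in model libraries 56, 57 and 59. On the CPM scale, these were 49.7, 19.5 and 24.6 in control and 1037, 559 and 613 in model libraries. The groups lay far apart: the lowest model value was 11.2 times the highest control value. By count, its rank among all rows was 251, 335 and 315 in controls and 95, 121 and 122 in model libraries.

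On average miR-21a-3p stood at 31.2 ± 16.2 CPM among controls and at 736 ± 262 CPM in the model group (SD, n = 3 each), a 23.6-fold difference and a log2 fold change of 4.55 (SE 0.47, edgeR). In the authors' own RPM values (reads scaled to a larger library total), its means were 2.54 ± 1.81 and 94.0 ± 18.2, a 37.1-fold difference, and those of miR-21a-5p were 961 ± 344 and 2764 ± 529, a 2.88-fold difference (SD, n = 3 each). The control level of miR-21a-3p had the neighbours miR-495-3p (31.3 ± 16.2 CPM) and a predicted row (30.9 ± 13.3 CPM). In the model group its neighbours were miR-194-5p (741 ± 433 CPM) and miR-19b-3p (710 ± 90.1 CPM), and neither group's neighbours differed from it beyond the spread.

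The higher levels of both strands in the model, without overlap between groups, were found in 14.4% of all rows tested, and a further 16.6% were lower without overlap. With edgeR's quasi-likelihood test and adjustment over all rows, 1.20% of rows passed the threshold of 0.05, 1.00% as higher and 0.200% as lower. These shares count every row tested, the miR-21a strands included, and 0.805% of rows were called higher with both strands left out. At an unadjusted p under 0.05, 11.4% of rows were higher and 12.4% lower. No p is given for the strands, and nothing is read from these shares about them. Of the rows tested, only miR-147-3p and miR-202-5p had a log2 fold change above that of miR-21a-3p. miR-147-3p had 3 counts over the control libraries together, and miR-202-5p, named after its values were seen, had a model level of 159 ± 250 CPM (SD, n = 3) that overlapped the controls.

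**Figure D1:**
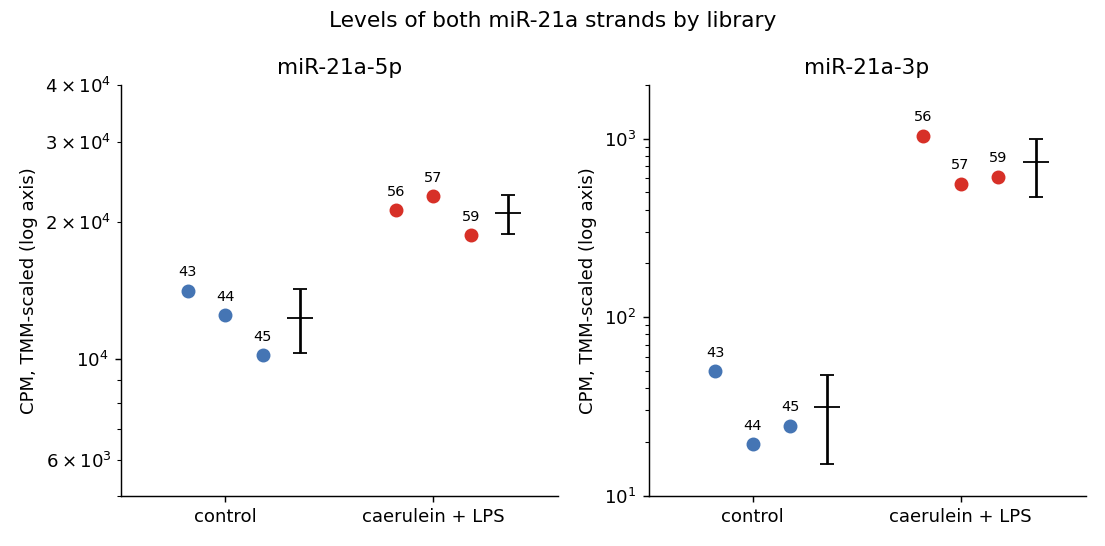
TMM-scaled CPM (log axes) of miR-21a-5p and miR-21a-3p in the 3 control and 3 model libraries, each point labelled with its replicate number, with the mean and SD at the right of each group. The 5p strand lies between 10192 and 14117 CPM in control and 18687 and 22744 CPM in model libraries, while the 3p strand lies between 19.5 and 49.7 CPM and 559 and 1037 CPM.

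**Figure D2:**
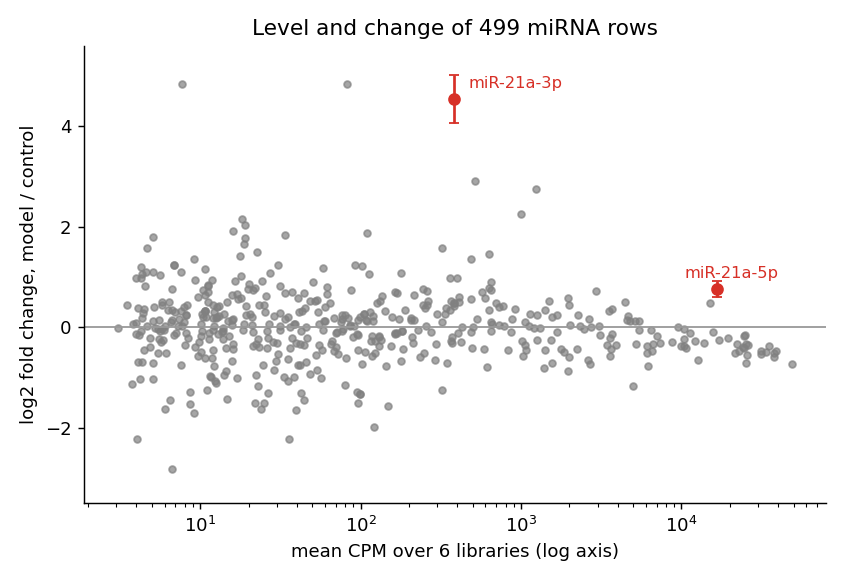
Each of the 499 rows tested by its mean CPM over 6 libraries (log axis) and its log2 fold change, model over control, with the 2 miR-21a strands in red and their SE as bars. The 3p strand lies at 4.55 among rows of middle abundance, and the 5p strand at 0.77 among the most abundant rows, of which 2 of 32 lie above 0 with these TMM factors.

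The strands did not vary alike within a group. Control replicate 43 was highest for both strands, but control replicate 45 was lowest for miR-21a-5p and control replicate 44 for miR-21a-3p. In the model group, replicate 57 was highest for the guide and lowest for the star strand, and replicate 56 was highest for the star strand. The coefficient of variation (SD over mean) of the guide was 16.1% in control and 9.82% in model libraries, beside medians of 17.7% and 8.77% in the 50 rows nearest to it in level. For the star strand it was 51.8% in control and 35.6% in model libraries, beside medians of 24.9% and 20.8%. In control, 6 of those 50 rows had a higher coefficient than the star strand, and in the model group 13 had.

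The balance of the strands can be read within a library, where the scaling between libraries plays no part. Of all miR-21a counts, the 3p strand made up 0.351% in control replicate 43 (exact Clopper-Pearson 95% interval 0.293% to 0.417%), 0.156% in replicate 44 (0.111% to 0.212%) and 0.241% in replicate 45 (0.173% to 0.326%). In model libraries it made up 4.66% in replicate 56 (4.49% to 4.83%), 2.40% in replicate 57 (2.29% to 2.51%) and 3.18% in replicate 59 (3.04% to 3.31%). The intervals of the 3 model libraries did not touch each other. All these intervals treat counts as independent, and whether reads were collapsed on their molecular identifiers is not known. Nothing is read from the intervals about the groups, since the strands were picked on these counts. The means were 0.249% ± 0.0977 and 3.41% ± 1.15 (SD, n = 3 each).

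**Figure D3:**
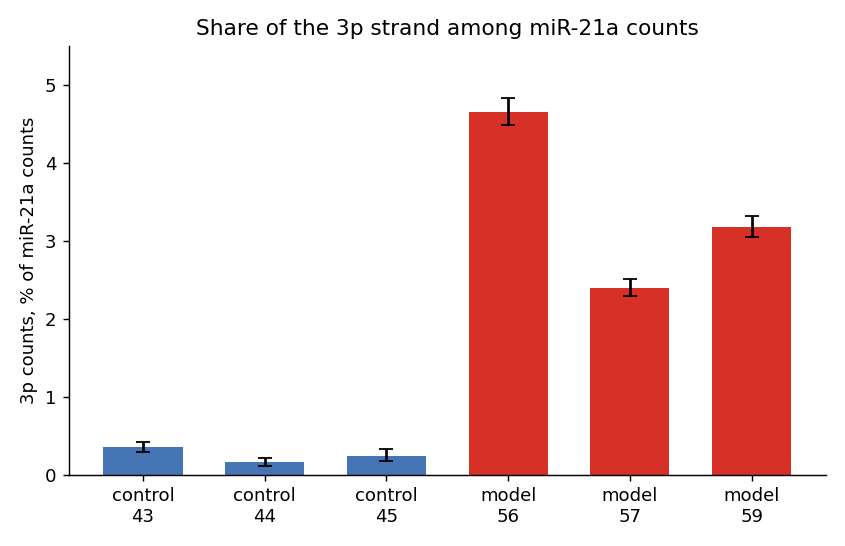
Share of the 3p strand in all miR-21a counts (percent) for each library, with exact 95% binomial intervals that cover counting error only. Control libraries lie between 0.156% and 0.351% and model libraries between 2.40% and 4.66%.

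In counts, the guide outnumbered the star strand 284, 641 and 415 times in controls 43, 44 and 45, and 20.5, 40.7 and 30.5 times in model libraries 56, 57 and 59. The mean log2 ratio of 5p to 3p, with 1 count added to each, was 8.70 ± 0.58 for controls and 4.88 ± 0.50 for the model group (SD, n = 3 each). The difference was -3.82 (SE 0.44), which is 14.1-fold. The guide still held most of the gain in level: of the 9331 CPM by which both strands together were higher in the model, the 3p strand made up 7.56%.

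Among 139 hairpins whose arms each averaged 10 counts or more, miR-21a had the most negative difference in arm ratio. The next were those of miR-532, at -2.31 (SE 3.74), and miR-125a, at -1.29 (SE 0.51). The miR-532 value spread widely on both arms: miR-532-5p had 28 and 34 counts in control replicate 43 and model replicate 56 and 4994 to 11885 in the other libraries, and miR-532-3p had 0 to 186 counts. At the opposite end stood miR-3105, at 1.91 (SE 0.99), and miR-181c, at 1.69 (SE 0.42). Over the 138 other hairpins the median difference was 0.05, and 111 of them lay within 1 of 0 on the log2 scale. The ratio was lower in every model library than in every control library in 7.91% of the 139 hairpins, miR-21a included, and higher in 10.8%.

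With these values miR-21a moved from the strongly one-sided hairpins towards the middle. In control, 10 of the 139 hairpins had a more uneven arm ratio than miR-21a, whichever arm was the larger. In the model group 55 had, and the median size of the log2 ratio over all hairpins was 3.91 in control and 3.92 in model libraries. Among 392 minor arms, miR-21a-3p ranked 47, 71 and 74 by count in controls 43, 44 and 45, and 5, 8 and 9 in model libraries 56, 57 and 59. In model libraries it had more counts than 287 to 309 of the major arms of these hairpins, and in controls more than 182 to 216.

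**Figure D4:**
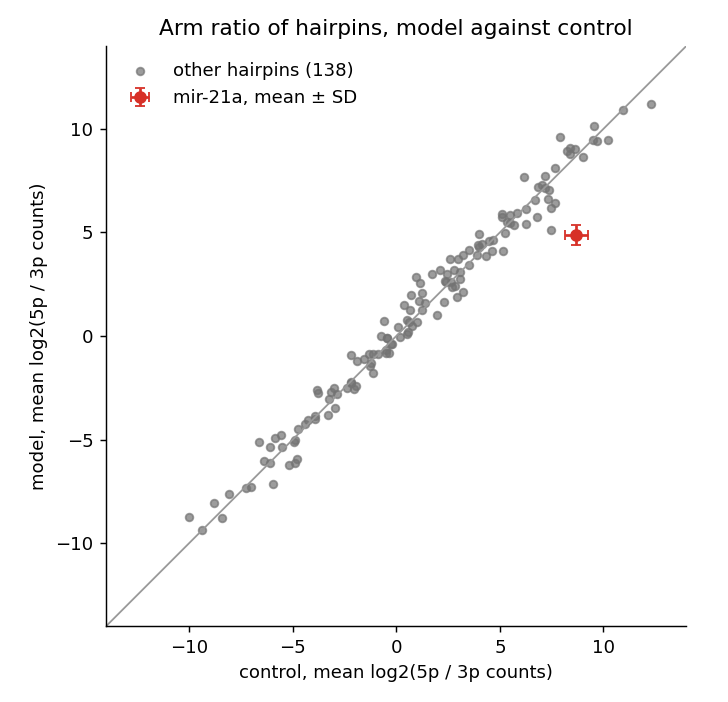
Mean log2 ratio of 5p to 3p counts in model (vertical) against control libraries (horizontal) for 139 hairpins, with a line where both are equal and the SD of miR-21a as bars (n = 3 each). miR-21a lies at 8.70 and 4.88, below the line by 3.82, while 111 of the 138 others lie within 1 of it.

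Among 391 other minor arms, 138 were tested, and 1 rose and 0 fell with edgeR (13 and 16 at an unadjusted p under 0.05, where all rows gave 11.4% and 12.4%; 6 and 6 of the 138 with DESeq2). Their median log2 fold change was 0.04, beside 0.005 over all rows tested, and 74 of the 138 were positive. With DESeq2, 17 of 1414 rows were called higher and 16 lower. These 1414 rows include those too scarce for edgeR's filter, which 499 passed, so they are not a like base for the 138. The share of minor arms called higher by edgeR was 0.725%, beside 1.00% of all rows. The arm that passed was miR-212-5p, whose hairpin gave arms of near equal level. Its partner miR-212-3p, named after its values were seen, was at 11.8 ± 7.20 CPM in control and 33.2 ± 6.10 CPM in the model group (SD, n = 3 each). Of 256 tested major arms other than miR-21a-5p, 2 were higher, miR-223-3p and miR-18a-5p (the latter named after its values were seen), and the median over the 256 was 0.01. The minor arm call was lost without control replicate 44, control replicate 45 or any 1 model library.

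Rows that resembled each strand over the 6 libraries were sought among 366 known rows with a mean of at least 10 CPM and a sequence of their own. Likeness was measured as the root mean square difference of log2 CPM after each row's mean was subtracted. The measure includes the difference between groups, and all rows of a library share its scaling. For miR-21a-3p the nearest were miR-223-3p (0.93), miR-155-5p (1.26), miR-212-5p (1.37) and miR-503-5p (1.38), where the median over all 365 other rows was 2.36. For miR-21a-5p they were miR-28a-3p (0.133), miR-329-5p (0.135), miR-125a-3p (0.142) and miR-455-5p (0.145), with a median of 0.56.

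The strands themselves were unlike by this measure, at 1.95, so that the guide came 27th of 365 rows in nearness to miR-21a-3p. None of these 8 neighbours shares a seed with either strand. The neighbours of the guide were all far scarcer than it, with control means from 11.3 to 124 CPM, and each had a log2 fold change between 0.70 and 0.92 with an edgeR adjusted p of at least 0.113.

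**Figure D5:**
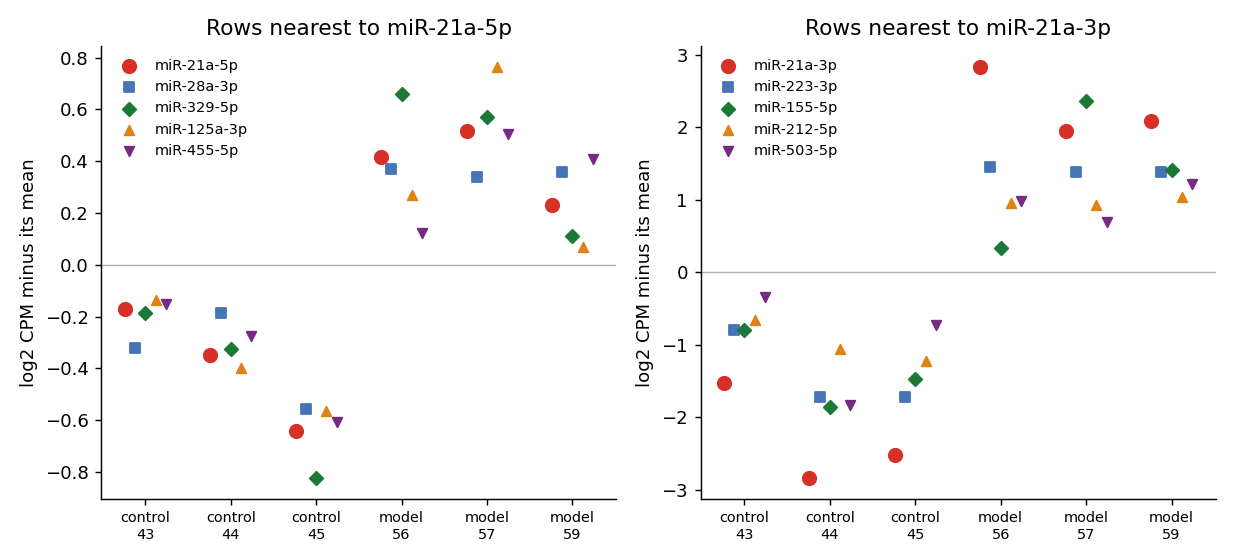
Log2 CPM minus its mean over the 6 libraries, by library, for miR-21a-5p (left) and miR-21a-3p (right) with the 4 rows nearest to each; points are set side by side within a library. The 3p strand lies further from 0 than its neighbours in all libraries except model replicate 57, where miR-155-5p lies at 2.36 and the 3p strand at 1.95.

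LPS and NF-kB signalling, which act on miR-21, also induce other miRNAs, and 2 of 10 tested members of a list of these rose. Of the 2, miR-147-3p passed the filter on low counts only through its model libraries, so it could be called only as higher. The list was chosen with earlier results of these data known, so its counts are a description. The list held both arms of miR-155, miR-146a, miR-146b, miR-147, miR-132, miR-212 and miR-9, without miR-21a, and 13 of its rows were in the table. Beside 2 higher, 0 were lower (7 and 0 at an unadjusted p under 0.05; 4 higher with DESeq2). Over all rows, 1.00% were called higher with edgeR, and 11.4% were higher at an unadjusted p under 0.05. DESeq2 called 17 of 1414 rows higher, but those include rows too scarce for edgeR's filter, so they are not a like base for the 10. The median log2 fold change of the 10 tested members was 1.36, beside 0.005 over all rows.

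miR-147-3p, induced through Toll-like receptors, had 2, 0 and 1 counts in the controls and 41, 72 and 25 in model replicates 56, 57 and 59. The ratio of its scaled rates, from counts pooled within each group, was 31.2, with an exact 95% interval of 10.5 to 153. That interval covers counting error only and leaves out the spread between libraries. The edgeR adjusted p of miR-147-3p was 0.0273, but the row passed the filter only through its model libraries, so nothing is read from it. miR-212-5p, from the CREB-responsive miR-132 and miR-212 cluster, rose from 7.35 ± 1.69 to 30.4 ± 1.16 CPM (SD, n = 3; log2 fold change 2.03, SE 0.30, edgeR adjusted p = 0.0207). Both lay higher in each model library than in each control.

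The most abundant tested member, miR-146a-5p, which restrains NF-kB signalling, was at 2204 ± 558 and 3661 ± 1630 CPM (SD, n = 3), with overlapping groups (log2 fold change 0.73, SE 0.35; adjusted p = 0.246 with edgeR). Its fold change resembled that of miR-21a-5p in size, with a wider spread. miR-155-5p, of activated macrophages and lymphocytes and second nearest to miR-21a-3p, had 448, 169 and 179 counts in controls 43, 44 and 45, and 1018, 5026 and 2679 in model libraries 56, 57 and 59. Its groups did not overlap, but its log2 fold change of 2.91 (SE 0.55) missed the threshold (adjusted p = 0.0564 with edgeR). Both calls of the list were lost without control replicate 44, control replicate 45 or model replicate 57, and 1 was lost without model replicate 56 or 59. With the authors' library totals 9 members were higher, where 121 of 503 rows were called higher.

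A second list held miRNAs tied to STAT3, AP-1 or SMAD proteins, the other regulators of miR-21: both arms of miR-181b, miR-221, miR-222, miR-199a and miR-31. Of 8 tested members, 0 passed in either direction with edgeR (0 at an unadjusted p under 0.05, and 0 with DESeq2), beside 1.20% of all rows called in either direction. Of these 8, 2 were higher without overlap between groups, miR-199a-3p and miR-222-3p, while miR-199a-5p was lower without overlap. These were named after their values were seen. Over all rows, 14.4% were higher without overlap and 16.6% lower. The median log2 fold change of the 8 members was 0.15. The most abundant over all 6 libraries was miR-181b-5p, at 1657 ± 97.3 CPM in control and 1400 ± 237 CPM in model libraries (SD, n = 3; log2 fold change -0.24, SE 0.21, edgeR adjusted p = 0.567), a sequence that more than 1 hairpin can give. With the authors' library totals 4 members were higher, where 121 of 503 rows were called higher.

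Of the leukocyte markers, 1 rose. miR-223-3p, a myeloid miRNA and the row nearest to miR-21a-3p, rose from 321 ± 129 to 2162 ± 60.8 CPM (SD, n = 3; log2 fold change 2.75, SE 0.31, edgeR adjusted p = 0.0077). Of 6 markers in the list (both arms of miR-223, miR-142a and miR-511), 5 were tested, and 1 was higher and 0 lower with edgeR (3 and 0 at an unadjusted p under 0.05; 3 and 0 with DESeq2), beside 1.00% of all rows called higher. DESeq2 called 17 of 1414 rows higher, but those include rows too scarce for edgeR's filter, so they are not a like base for the 5. Both arms of miR-223 and miR-142a-3p were higher without overlap between groups, as were 14.4% of all rows, while miR-142a-5p and miR-511-3p overlapped. The tested markers together held 584 to 1495 CPM in control and 3285 to 4150 CPM in model libraries. miR-511-5p was at 0 in 1 library, and no other marker of the list was. The part of these cells in the levels of miR-21a was not tested.

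Set against the leukocyte list within each library, a comparison chosen after the values were seen, miR-21a-3p had close ratios in the 3 controls, with wide intervals. It had 3.32, 3.33 and 3.14 counts per 100 list counts in control replicates 43, 44 and 45 (95% intervals 2.77 to 3.96, 2.37 to 4.56 and 2.24 to 4.28). In model replicates 56, 57 and 59 it had 29.1, 13.5 and 18.7 (27.9 to 30.4, 12.8 to 14.1 and 17.8 to 19.6). Per 100 counts of miR-223-3p alone it had 10.6, 7.89 and 9.98 in these controls and 46.5, 26.2 and 28.9 in these model libraries. Control replicate 43, the highest control for the star strand, was thus also the highest control for the list, at 1495 CPM against 584 and 783 CPM in replicates 44 and 45. In the model group, by contrast, replicate 57 was highest for the list and lowest for the star strand.

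Against the same list, the guide had a lower ratio in the model. miR-21a-5p had 9.44, 21.3 and 13.0 counts per list count in controls 43, 44 and 45, and 5.96, 5.48 and 5.69 in model libraries 56, 57 and 59. The ratio was lower in every model library than in every control, and in the model group it varied little. The list itself held 584 to 1495 CPM in control and 3285 to 4150 CPM in model libraries, a larger rise than the guide's 1.70-fold. The lower ratio thus follows from levels already given and is no separate result about the guide.

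Summed levels of the other marker lists are given on both scales, because their order between groups depends on the scaling. The lymphoid marker miR-150-5p was at 3717 to 5235 CPM in control and 1429 to 5840 CPM in model libraries (229 to 488 and 159 to 863 in the authors' RPM). The stromal and smooth muscle list (miR-143-3p, miR-145a-5p, both arms of miR-199a and miR-214-3p) held 18091 to 27991 CPM and 17317 to 20913 CPM (1114 to 2108 and 2320 to 2969 RPM). The endothelial miR-126a strands held 40568 to 47690 CPM and 32211 to 37872 CPM (2744 to 3778 and 4192 to 5598 RPM). Sums mix rows that changed by different amounts, so their changes are not set against that of miR-21a-3p. The part of these cells in the level of that strand was not tested.

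For the erythroid markers (miR-451a, miR-144-3p and miR-486a-5p) the sums were 10637 to 13625 CPM and 7100 to 12082 CPM (655 to 1269 and 1050 to 1340 RPM). The acinar list held 55777 to 92618 CPM and 47827 to 50991 CPM (4202 to 5701 and 5657 to 7069 RPM). The islet markers miR-375-3p and miR-7a-5p held 58828 to 80826 CPM and 38838 to 52091 CPM (4975 to 5479 and 5350 to 7045 RPM). The sums of the acinar and the islet list were thus lower in every model library in CPM, and overlapped between groups in RPM. Among their members, miR-217-5p and miR-7a-5p overlapped between groups in CPM too. Over these 6 lists 0 of 17 tested markers passed with edgeR (1 higher and 3 lower at an unadjusted p under 0.05; 0 with DESeq2). Over all rows, 1.20% were called, and 11.4% were higher and 12.4% lower at an unadjusted p under 0.05. Their part in the levels of miR-21a was not tested.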

How the data were processed

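Small RNA of 18 to 30 nt was sequenced from pancreas, with molecular identifiers in the adapters, per the labels' protocols. The authors deposited 1 table with whole-number read counts and RPM values for 1414 rows, 1104 known miRNAs and 310 predicted ones, per the file headers. The deposited RPM values are the counts divided by a library total of 22055639 to 27876715, recovered here from both columns; the sources used here do not say what that total counts. Bowtie2 and GRCm38.p6 are named in the submitters' processing notes, without roles.

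Groups came from the sample titles. Counts were filtered with filterByExpr (minimum count 10, minimum total 15), scaled with TMM factors and fitted with edgeR 4.0.16 in R 4.3.3 (robust dispersions, two-sided quasi-likelihood test, Benjamini-Hochberg adjustment over 499 rows, threshold 0.05); the script was tested on simulated data. SEs of fold changes are the fold change over the square root of its F. Log2 CPM used a prior count of 2. Structure came from RNAfold 2.7.2. DESeq2 1.42.0, other scalings, no filter, identical sequences kept once and leaving out each library were alternatives. Named rows were the strands, rows sharing a seed, called and most abundant members of 2 lists, the 4 rows nearest to each strand, the extreme hairpins, and neighbours in level. The members and lists were chosen with earlier results of these data known. The libraries' replicate numbers and labels name no batch.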

Additional observations from a re-analysis of the deposited data

How the results depend on the processing

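Scaling shifted all fold changes together: the median over all rows moved by -0.29 with upper quartile factors, 0.30 with total counts alone, and by 0.79 under the authors' library totals, the last chosen after seeing the data. The log2 fold change of miR-21a-5p was 0.48, 1.05 and 1.52 under these, and that of miR-21a-3p was 5.21 with the authors' totals. Relative to the median of all rows, the 4 edgeR scalings and the authors' totals gave 4.42 to 4.58 for miR-21a-3p and 0.73 to 0.77 for miR-21a-5p. TMM factors were 0.8585 to 0.9879 in control and 1.085 to 1.161 in model libraries. The miRNA counts made up 7.17% to 9.43% of the authors' totals in control and 10.2% to 13.6% in model libraries. Both parted the groups, so effects of scaling and of condition on levels cannot be told apart. Leaving out 1 library gave 4.25 to 5.05 for miR-21a-3p, 0.62 to 0.88 for miR-21a-5p and -4.10 to -3.52 for the difference in log2 arm ratio, which was -3.85 with no counts added.

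Counts of rows past the threshold, 5 higher and 1 lower, depended on the setting; the cause was not tested. They were 8 lower with RLE factors, 39 lower with upper quartile factors, 17 higher with total counts alone, 23 and 35 without the filter, 17 and 16 with DESeq2, and 121 and 2 with the authors' totals; without 1 library they were 3 to 5 higher (3 without control replicate 44 or 45 or model replicate 57) and 0 to 5 lower (5 without control replicate 43, 0 without any other). The LPS- and NF-kB-induced list had 4 higher with total counts alone, 6 without the filter, 4 with DESeq2, 9 with the authors' totals and 0 to 2 without 1 library. The STAT3, AP-1 and SMAD list had 4 higher with the authors' totals. Minor arms had 8 lower with upper quartile factors, 6 higher with total counts alone, 7 higher and 8 lower without the filter, 6 and 6 with DESeq2, 33 higher with the authors' totals and 0 to 1 higher without 1 library. No paired analysis was possible because the groups share no replicate number. Depth limits the control values of miR-21a-3p, which rest on 40 to 129 counts.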
